A study of Homo sapiens with 6 samples.

Results

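The 8 genes described here encode core parts of the caspase machinery of apoptosis: the caspases CASP6, CASP8 and CASP9, the apoptosome components APAF1 and CYCS, and the inhibitors CFLAR, BIRC2 and XIAP. They were taken by gene symbol for their roles, with earlier results of these data known, and each matched 1 row, so 8 of the 31853 genes of the deposited table are covered. Poly(A) RNA of Mon-Mac-6 cells, an established human monocytic leukaemia line, was sequenced after 48 h with 500 nM WD6305 (3 libraries) or with DMSO, the vehicle (3 libraries). WD6305 is named in the series title as a PROTAC against METTL3, the catalytic subunit of the enzyme that writes N6-methyladenosine on RNA. A PROTAC directs its target protein to degradation, and no protein was measured here. METTL3 RNA had means of 67.3 ± 2.86 CPM (counts scaled to library size by the TMM method) in the DMSO group and 78.0 ± 1.88 CPM in the WD6305 group (± SD, n = 3 each). This was a rise, with a log2 fold change of 0.21 (edgeR adjusted p = 0.0218). All libraries come from 1 cell line. The labels do not say that the libraries of a group were separate cultures, so the spread behind each p-value may be technical only.

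Caspases are proteases that are made as inactive precursors and are switched on in cascades. Death receptors at the cell surface recruit caspase-8 through the adaptor FADD, and c-FLIP, the product of CFLAR, competes with caspase-8 in that complex. In the mitochondrial route, cytochrome c (CYCS) leaves the mitochondrion and binds APAF1, which assembles into the apoptosome and activates caspase-9. Caspase-9 then activates executioner caspases, the class to which caspase-6 belongs. XIAP binds and blocks caspase-9 directly, whereas cIAP1, the product of BIRC2, is a ubiquitin ligase that acts mainly on signalling complexes of tumour necrosis factor receptors. In living cells cytochrome c carries electrons in the respiratory chain.

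Deposited counts summed to between 64525948 and 71155346 per library. Members of a monocyte and granule marker list were detected in every library (10 of 10 genes), with a summed level of 7434 to 7929 CPM with DMSO and 12921 to 14349 CPM with WD6305. Of these 10 markers, 7 rose, CD68, ELANE, LYZ and CSF1R among them, CD14 and MPO fell, and FCGR1A had a log2 fold change of 0.06. This shift moved with the treatment, and its part in the changes below was not tested. CD14 lost its call without WD6305 2 or 3 (edgeR adjusted p = 0.0512 and 0.0578), and MPO without DMSO 1, DMSO 2, WD6305 1 or WD6305 3 (0.0577 to 0.0806) and with no filter on low counts (0.0520). DMSO 3 and WD6305 1 stood apart from the other 4 libraries on the second principal component (16.3% of the variance). In these 2 libraries 11 keratinocyte genes found in the table summed to 9.10 and 7.41 CPM, against 218 to 267 CPM in the other 4, and KRT6A and KRT14 were at 0 in WD6305 1. Of 7 fibroblast genes, 7 were above 0 in WD6305 1 (44.6 CPM in sum) and 3 or 4 in the others (2.46 to 4.64 CPM). Lymphoid markers summed to 137 to 181 CPM, nearly all of it NKG7, and CD3D, CD3E, CD2 and MS4A1 were not analysed here. Erythroid markers reached at most 0.732 CPM. The members' results are therefore given with and without DMSO 3 and WD6305 1. In bulk RNA, fewer cells of a type and less RNA per cell cannot be told apart.

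Promoter sequences of a rising and a falling member are shown. They were picked after the motif search because they differ in the short motifs they hold. Both are RefSeq windows (GRCh38.p14) that run from 250 bases before to 50 bases after a gene start, read 5′ to 3′ on the gene's strand. All 8 members had at least 1 such window, 17 in all. The CFLAR window lies on the plus strand at chr2:201118466-201118765. Its capitals mark a match to the NF-kB consensus, starting 97 bases before the start site and overlapping a GGGCGG box. The CYCS window lies on the minus strand at chr7:25125211-25125510. Its capitals mark GCATGCGC, part of the binding motif of the respiratory gene regulator NRF1, starting 169 bases before the start site.
CFLAR: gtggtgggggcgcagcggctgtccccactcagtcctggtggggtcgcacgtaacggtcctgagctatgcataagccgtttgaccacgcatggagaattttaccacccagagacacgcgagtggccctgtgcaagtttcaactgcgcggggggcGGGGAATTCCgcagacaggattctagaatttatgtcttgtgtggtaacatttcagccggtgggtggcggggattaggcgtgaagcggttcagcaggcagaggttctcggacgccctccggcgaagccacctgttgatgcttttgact
CYCS: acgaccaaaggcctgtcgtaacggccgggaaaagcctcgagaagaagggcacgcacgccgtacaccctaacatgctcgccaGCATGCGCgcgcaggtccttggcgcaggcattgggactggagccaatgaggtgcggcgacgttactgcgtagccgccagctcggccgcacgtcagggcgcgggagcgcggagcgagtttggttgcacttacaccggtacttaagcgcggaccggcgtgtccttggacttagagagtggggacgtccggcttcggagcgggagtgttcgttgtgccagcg

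Both strands were searched. Among 35116 RefSeq promoter windows of the same length, 9.08% held the NF-kB consensus and 3.05% held GCATGCGC. Within the 17 member windows, the NF-kB consensus was found in the CFLAR window above and not in the other 3 CFLAR windows, and GCATGCGC was found in the CYCS window alone. The other rising members, CASP6, BIRC2 and APAF1, held no match to the NF-kB consensus. Any link between a motif and the direction of change was not tested. No member window held CACGTG (7.26% of all windows) or CCGGAAGT (4.14%). The GC box GGGCGG, present in 45.0% of all windows, occurred in at least 1 window of every member except CYCS. It was absent from some windows of CASP8, CFLAR and XIAP. CCAAT, present in 34.6%, occurred in the CYCS and APAF1 windows and in 1 window each of CASP8 and CASP9. These percentages are per window, so they are not the share to set beside a number of genes, some of which had more than 1 window. A p53 half-site (6.63% of all windows) was found in 1 window of CASP8 and 1 of CASP9. These matches describe the letters of the windows and do not show binding.

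Of the 8 members, all of which passed the filter on low counts, CASP6, BIRC2, CFLAR and APAF1 rose with WD6305 and CYCS fell, while CASP8, CASP9 and XIAP did not pass the test (quasi-likelihood test of edgeR, with p-values adjusted over 18138 genes by Benjamini-Hochberg and a threshold of 0.05). Across all tested genes 23.4% were called, 12.2% higher and 11.2% lower, so a call alone was not rare. The groups did not overlap for the same 5 members, against 40.8% of all tested genes. The members' median log2 fold change was 0.28, against 0.00 over all tested genes, and the median size of the change was 0.30 against 0.26. Changes were moderate, between 1.32-fold and 1.52-fold for the 4 that rose.

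**Figure D1:**
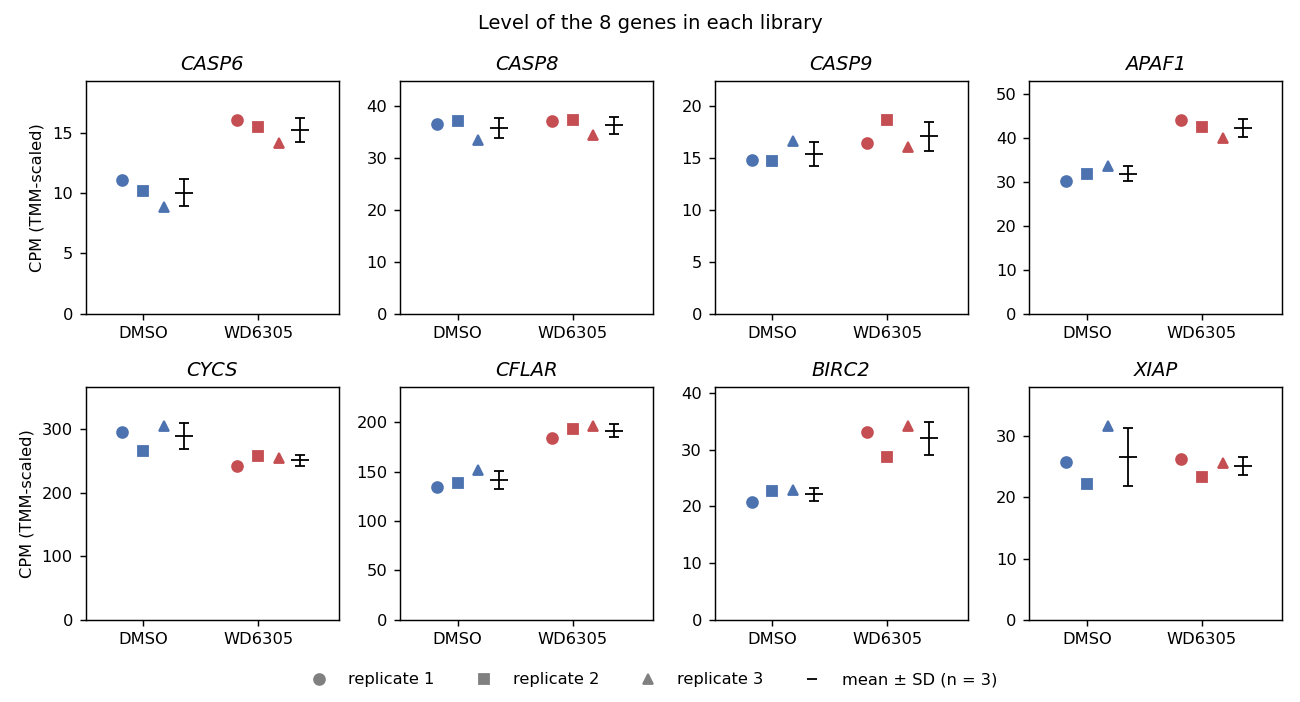
Level of each gene in CPM (vertical axis, from 0) in the 3 DMSO and 3 WD6305 libraries, with the replicate number as the symbol and the mean ± SD beside each group. The groups are separate for CASP6, APAF1, CYCS, CFLAR and BIRC2 and overlap for CASP8, CASP9 and XIAP.

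Among the caspases, CASP6 carried the change. CASP6 (chromosome 4, 109688622 to 109703583, minus strand, GRCh38 as in the deposited table) encodes an executioner caspase known for cleaving nuclear lamins. It was at 11.1, 10.2 and 8.87 CPM in DMSO 1, 2 and 3 and at 16.1, 15.5 and 14.2 CPM in WD6305 1, 2 and 3. Every WD6305 library lay above every DMSO library. The fitted log2 change was 0.60 with SE 0.11 (adjusted p = 0.00406), or 1.52-fold with a 95% interval of 1.28 to 1.80. Without DMSO 3 and WD6305 1 it was 0.48 (adjusted p = 0.0253). The table's MCUB gene overlaps the end of CASP6 by 98 bases on the opposite strand, at 19.7 CPM with DMSO and 15.7 CPM with WD6305.

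CASP8 (chromosome 2, 201233443 to 201361836, plus strand), the initiator of the death receptor route, was level between the groups. It was at 36.5, 37.1 and 33.5 CPM with DMSO and at 37.1, 37.4 and 34.5 CPM with WD6305. These ranges overlap almost completely. Its log2 change was fitted at 0.02 with SE 0.07 (adjusted p = 0.856), and its 95% interval allows a change between 0.907-fold and 1.14-fold. Without DMSO 3 and WD6305 1 the log2 change was -0.04 (adjusted p = 0.798). FLACC1 lies within the span of CASP8 on the opposite strand, at 0.409 CPM with DMSO and 1.00 CPM with WD6305, a small amount beside CASP8.

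CASP9 (chromosome 1, 15490832 to 15524889, minus strand), the initiator that the apoptosome activates, was at 14.8, 14.7 and 16.7 CPM with DMSO and at 16.5, 18.7 and 16.1 CPM with WD6305. DMSO 3 lay above 2 of the WD6305 libraries. Fitted on the log2 scale, the change was 0.15 with SE 0.09 (adjusted p = 0.298), with a 95% interval from 0.958-fold to 1.29-fold. The interval holds both no change and modest increases. The log2 change was 0.08 without WD6305 2, 0.21 without DMSO 3 and 0.24 without DMSO 3 and WD6305 1 together (adjusted p = 0.653, 0.161 and 0.191).

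The 2 apoptosome genes moved in opposite directions. APAF1 (chromosome 12, 98645290 to 98735433, plus strand), the scaffold of the apoptosome, was at 30.2, 31.9 and 33.7 CPM with DMSO and at 44.2, 42.5 and 40.0 CPM with WD6305. The lowest WD6305 library lay well above the highest DMSO library. The fitted log2 change was 0.40 with SE 0.07 (adjusted p = 0.00464), and 0.41 (adjusted p = 0.00906) without DMSO 3 and WD6305 1.

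CYCS (chromosome 7, 25118656 to 25125260, minus strand) was at 296, 266 and 306 CPM with DMSO and at 242, 259 and 254 CPM with WD6305. The groups were separate but close, DMSO 2 lying just above WD6305 2. Its log2 change was fitted at -0.20 with SE 0.06 (adjusted p = 0.0382), or 0.870-fold. This call was lost without DMSO 1, DMSO 3 or any single WD6305 library (adjusted p = 0.0733 to 0.133), with no filter on low counts (0.0904) and without both DMSO 3 and WD6305 1 (log2 fold change -0.13, adjusted p = 0.162), and the sign was kept in each. Cytochrome c has many processed pseudogenes, so its reads may be shared with near-identical copies. The 7 CYCS pseudogenes listed in the table summed to 0.162% to 0.431% of the CYCS level.

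Of the inhibitors, CFLAR and BIRC2 rose and XIAP did not pass the test. CFLAR (chromosome 2, 201116154 to 201176687, plus strand) encodes c-FLIP, a relative of caspase-8 without protease activity. It was at 134, 138 and 151 CPM with DMSO and at 184, 193 and 196 CPM with WD6305. All WD6305 libraries lay above all DMSO libraries. Fitted on the log2 scale, the change was 0.44 with SE 0.06 (adjusted p = 0.000829), the smallest adjusted p among the 8 genes. Without DMSO 3 and WD6305 1 it was 0.52 (adjusted p = 0.000615). The table lists 23 transcripts for CFLAR, and gene-level counts do not separate the long and short forms of c-FLIP. The antisense gene CFLAR-AS1 was at 0.183 CPM with DMSO and 0.207 CPM with WD6305.

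BIRC2 (chromosome 11, 102347211 to 102378670, plus strand) was at 20.8, 22.7 and 22.9 CPM with DMSO and at 33.1, 28.7 and 34.2 CPM with WD6305. WD6305 2 was the lowest of its group and still above every DMSO library. The fitted log2 change was 0.53 with SE 0.09 (adjusted p = 0.00294), and it was 0.53 again (adjusted p = 0.0133) without DMSO 3 and WD6305 1.

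XIAP (chromosome X, 123859712 to 123913972, plus strand) was at 25.9, 22.3 and 31.7 CPM with DMSO and at 26.2, 23.4 and 25.7 CPM with WD6305. DMSO 3 was the highest of all 6 libraries and widened the DMSO spread (26.6 ± 4.75 CPM, against 25.1 ± 1.49 CPM with WD6305). Its log2 change was fitted at -0.08 with SE 0.12 (adjusted p = 0.687), with a 95% interval from 0.776-fold to 1.15-fold. It was 0.06 without DMSO 3 and -0.20 without DMSO 2, and passed the test in neither case. Without DMSO 3 and WD6305 1 together it was 0.03 (adjusted p = 0.894).

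**Figure D2:**
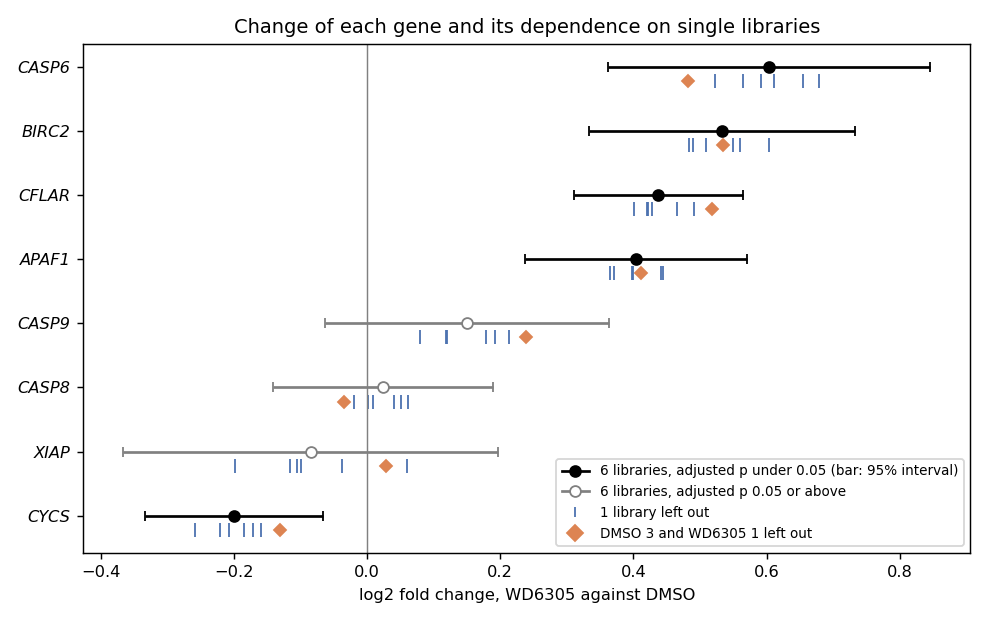
Log2 fold change of each gene (horizontal axis, WD6305 against DMSO) with its 95% interval from the edgeR fit of 6 libraries. Below each, the values with 1 library left out (ticks) and with DMSO 3 and WD6305 1 left out (diamonds) stay above 0.36 for the 4 genes that rose and below 0 for CYCS, and cross 0 for CASP8 and XIAP.

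The 4 rises were called in each of the 17 alternative settings, at adjusted p of 0.0282 or less. In the 4 libraries without DMSO 3 and WD6305 1, where 22.3% of all tested genes were called, the calls were these 4 and not CYCS.

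Compared per length, in FPKM (fragments scaled to gene length and library size, as deposited), CYCS was by far the most abundant of the 8. Its level was 47.6 ± 3.75 FPKM with DMSO and 40.7 ± 1.48 FPKM with WD6305. No source used here gives the length taken for each gene, and the order below CYCS depends on it. With DMSO, CFLAR followed at 5.97 ± 0.469 FPKM, then CASP6, CASP8 and BIRC2 at 4.89 ± 0.478, 4.68 ± 0.194 and 4.66 ± 0.301 FPKM, which lay within each other's spread. APAF1 was at 3.92 ± 0.271 FPKM, and CASP9 and XIAP were lowest, at 2.78 ± 0.243 and 2.66 ± 0.508 FPKM, again within their spread. With WD6305 the order below CYCS was CFLAR (7.95 ± 0.272 FPKM), CASP6 (7.33 FPKM), BIRC2 (6.63 ± 0.563), APAF1 (5.09 ± 0.265), CASP8 (4.68 ± 0.231), CASP9 (3.04 ± 0.265) and XIAP (2.46 ± 0.135). CASP8 thus kept its level while BIRC2 and APAF1 came to lie above it on this scale.

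The balance between partner genes was followed as the ratio of their FPKM values in each library, for 4 pairs. These ratios recombine the levels of the same genes in the same libraries, so they restate the changes above and are not a further test. CFLAR to CASP8, the c-FLIP to caspase-8 ratio, ran from 1.18 to 1.45 with DMSO, with DMSO 3 highest, and was 1.60, 1.67 and 1.84 with WD6305. The groups did not overlap, and the ratio was 1.33-fold higher with WD6305. APAF1 to CYCS was 0.0762, 0.0893 and 0.0823 with DMSO and 0.136, 0.122 and 0.117 with WD6305, or 1.52-fold higher, again without overlap. BIRC2 to XIAP was 1.69, 2.15 and 1.53 with DMSO and 2.67, 2.59 and 2.82 with WD6305, or 1.52-fold higher without overlap. Each of these 3 had an exact two-sided permutation p = 0.1, the smallest that 3 against 3 allows, so none could pass 0.05. XIAP to CASP9, an inhibitor and its target, was 0.970, 0.834 and 1.05 with DMSO and 0.880, 0.692 and 0.877 with WD6305, and the groups overlapped (exact permutation p = 0.3). The size of each ratio depends on the gene lengths behind the FPKM values, so it does not give the ratio of RNA molecules. The difference between the groups hardly depends on them. For CFLAR to CASP8 it was 0.416 on the log2 scale from FPKM and 0.414 from counts. RNA ratios do not give the ratios of the proteins.

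**Figure D3:**
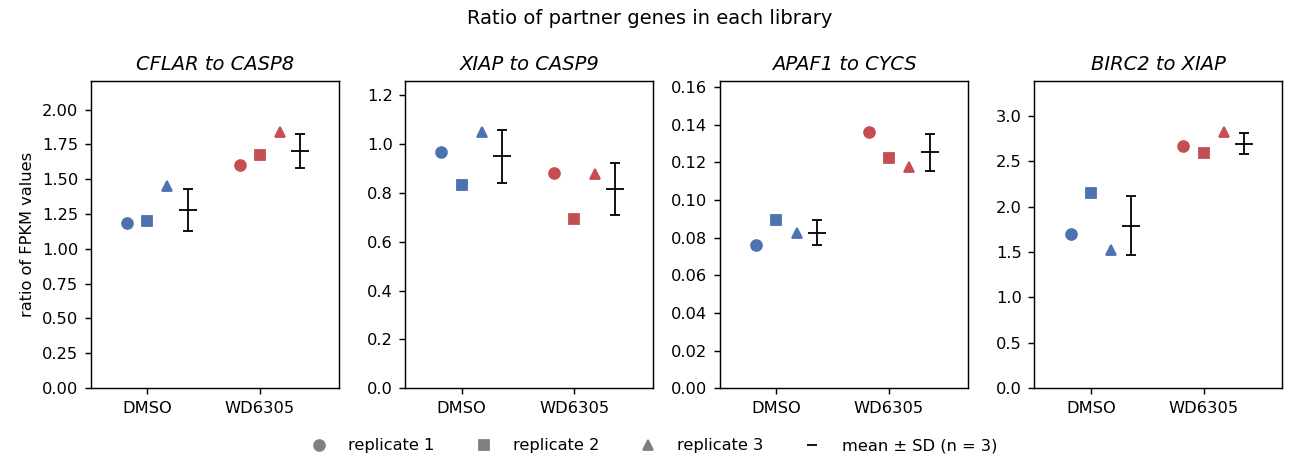
Ratio of FPKM values (vertical axis, from 0) for 4 pairs of partner genes in each library, with mean ± SD beside each group. CFLAR to CASP8, APAF1 to CYCS and BIRC2 to XIAP are higher in all 3 WD6305 libraries, while XIAP to CASP9 overlaps between the groups.

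The other genes of the pathway were taken from 9 lists of 113 genes, of which 105 were tested, 15 rose and 20 fell, or 33.3% called against 23.4% of all tested genes. The median log2 fold change of the lists was -0.03. Differences between the lists were not tested.

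CFLAR and CASP8 flank CASP10 on chromosome 2, and the 3 neighbours did not move alike. CASP10 (201182872 to 201229128), another initiator caspase of death receptors, was at 24.6, 21.4 and 22.6 CPM with DMSO and at 28.6, 30.0 and 28.5 CPM with WD6305 (log2 fold change 0.35, adjusted p = 0.0122). It lost its call without DMSO 2 or WD6305 2 (adjusted p = 0.0545 and 0.0517). Of the 6 tested caspases beyond the members, CASP10 rose and CASP1, the inflammasome caspase, fell (log2 fold change -0.18, adjusted p = 0.0438). CASP1 lost its call without any single library (0.0533 to 0.127) and without DMSO 3 and WD6305 1 together (0.0778).

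BIRC2 lies beside BIRC3, which encodes cIAP2, on chromosome 11, and both rose. BIRC3 (102317450 to 102339403) was at 1.17, 1.30 and 1.59 CPM with DMSO and at 2.82, 2.99 and 1.93 CPM with WD6305 (log2 fold change 0.93, SE 0.24, adjusted p = 0.0234). All WD6305 values lay above the DMSO values, at a level far below that of BIRC2. The call for BIRC3 was lost on leaving out DMSO 1, DMSO 2, WD6305 1 or WD6305 2 (adjusted p = 0.0714 to 0.0859), without DMSO 3 and WD6305 1 (0.0551), with no filter (0.0523) and in limma on log2(FPKM + 0.1) (0.0568). Of 8 tested genes of other inhibitors of apoptosis and their antagonists, NAIP also rose (log2 fold change 1.11, adjusted p = 0.000538), and BIRC5, which encodes the mitotic protein survivin, fell (-0.38, adjusted p = 0.00556). NAIP has near-identical copies, so its counts are uncertain. With testing limited to genes with a mean of at least 1 FPKM, 0 genes of this list were called higher, against 2 in the main fit. DIABLO and HTRA2, which encode mitochondrial proteins that release caspases from XIAP, were not called, at -0.03 and -0.08 on the log2 scale.

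Around the death receptors, 4 of 10 tested genes rose and 2 fell in edgeR, with a median log2 fold change of 0.17. DESeq2 called 5 higher and 2 lower. TRADD, at a log2 fold change of 0.55, was just short of a call in edgeR (adjusted p = 0.0563). FAS, a receptor that recruits caspase-8, went from 5.84 ± 0.779 to 12.7 ± 0.288 CPM (2.18-fold), and TNFSF10, which encodes the ligand TRAIL, from 20.5 ± 1.46 to 40.4 ± 1.19 CPM (1.97-fold). CYLD, a deubiquitinase that acts against cIAP signals, and RIPK1, the kinase that cIAPs modify, rose 1.49-fold and 1.27-fold. TNF fell from 28.7 ± 3.91 to 13.0 ± 1.63 CPM, and TNFRSF10B, a TRAIL receptor, had a log2 fold change of -0.51. FADD, the adaptor that binds caspase-8, was at 0.00, with a 95% interval of -0.14 to 0.14 on the log2 scale. In the list of 14 TRAF and NF-kB genes, TNFAIP3, TRAF6, NFKBIA and NFKB1 rose (log2 fold changes 0.76, 0.46, 0.36 and 0.19; median of the list 0.13). In this list edgeR called 0 genes lower and 1 had an unadjusted p under 0.05 in that direction, while DESeq2 called 1 lower and limma 0. TNFAIP3 and NFKBIA encode feedback inhibitors of NF-kB. NFKB1 lost its call without WD6305 1 or 3 (adjusted p = 0.0591 and 0.0723) and in both limma fits on FPKM (0.0681 and 0.0722).

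Upstream of the apoptosome, 1 of 15 tested BCL2 family genes passed the test. BAK1, a pore-forming member, fell from 76.4 ± 7.36 to 59.1 ± 7.29 CPM (log2 fold change -0.37, adjusted p = 0.0283). This call was lost on leaving out DMSO 1, DMSO 3, WD6305 1 or WD6305 3 (adjusted p = 0.0502 to 0.0965), without DMSO 3 and WD6305 1 (0.0837) and with no filter (0.0806). The other 14 were not called with all 6 libraries and had log2 fold changes from -0.40 to 0.54. Without WD6305 3, 1 gene of the family was called higher. BCL2, BCL2L1 and MCL1, which encode survival proteins, were each at 0.04.

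Of 16 genes for proteins that bind or regulate the apoptosome, cytochrome c release or mitochondrial fission, 9 fell and 0 rose in edgeR, with a median log2 fold change of -0.26. DESeq2 and limma also called 0 higher, and 0 had an unadjusted p under 0.05 in that direction. The list mixes roles, and those that fell include the mitochondrial channels VDAC1 and VDAC2 (-0.55 and -0.43), the mitochondrial chaperone HSPE1 (-0.52) and ANP32A (-0.24), which promotes apoptosome activity. HSPA8 and HSPD1, also among the 9, lost their calls without WD6305 2 or 3 (adjusted p = 0.0587 and 0.0664 for HSPA8, 0.0664 and 0.0795 for HSPD1). Among 20 genes for the haem lyase HCCS and for subunits of the respiratory complexes that exchange electrons with cytochrome c, 3 fell and 2 rose, with a median of -0.07, a share of calls near the 23.4% of all tested genes. COX5A, CYC1 and UQCRC1 had log2 fold changes of -0.46, -0.42 and -0.33, and COX6A1 and UQCRFS1 had 0.24 and 0.17. The COX6A1 call was lost on leaving out DMSO 2, DMSO 3, WD6305 2 or WD6305 3 (adjusted p = 0.0551 to 0.114) and with no filter (0.0762). UQCRFS1 lost it without the same libraries (0.0789 to 0.161), with no filter (0.0848), with RLE factors (0.0515), with library sizes alone (0.0579) and in both limma fits (0.0591 and 0.0622). HCCS, which attaches haem to cytochrome c, was at 0.01 and did not pass.

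Among genes for caspase substrates and execution, LMNA encodes lamin A and C, known substrates of caspase-6. Its RNA was at 213 ± 12.1 CPM in the DMSO group and fell to 105 ± 4.49 CPM. The log2 fold change was -1.02 with SE 0.06 (edgeR adjusted p = 2.5e-05). Cleavage of the proteins was not measured. PARP1 and AIFM1 had log2 fold changes of -0.29 each, and GSDMD, which encodes a pore-forming protein of pyroptosis, rose 1.39-fold. The other 10 of the 14 substrate and execution genes did not pass. Of 2 tested necroptosis genes, RIPK3, whose kinase caspase-8 restrains, rose from 8.53 ± 0.353 to 13.8 ± 0.997 CPM (log2 fold change 0.70, adjusted p = 0.00111), and MLKL had a log2 fold change of 0.06.

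**Figure D4:**
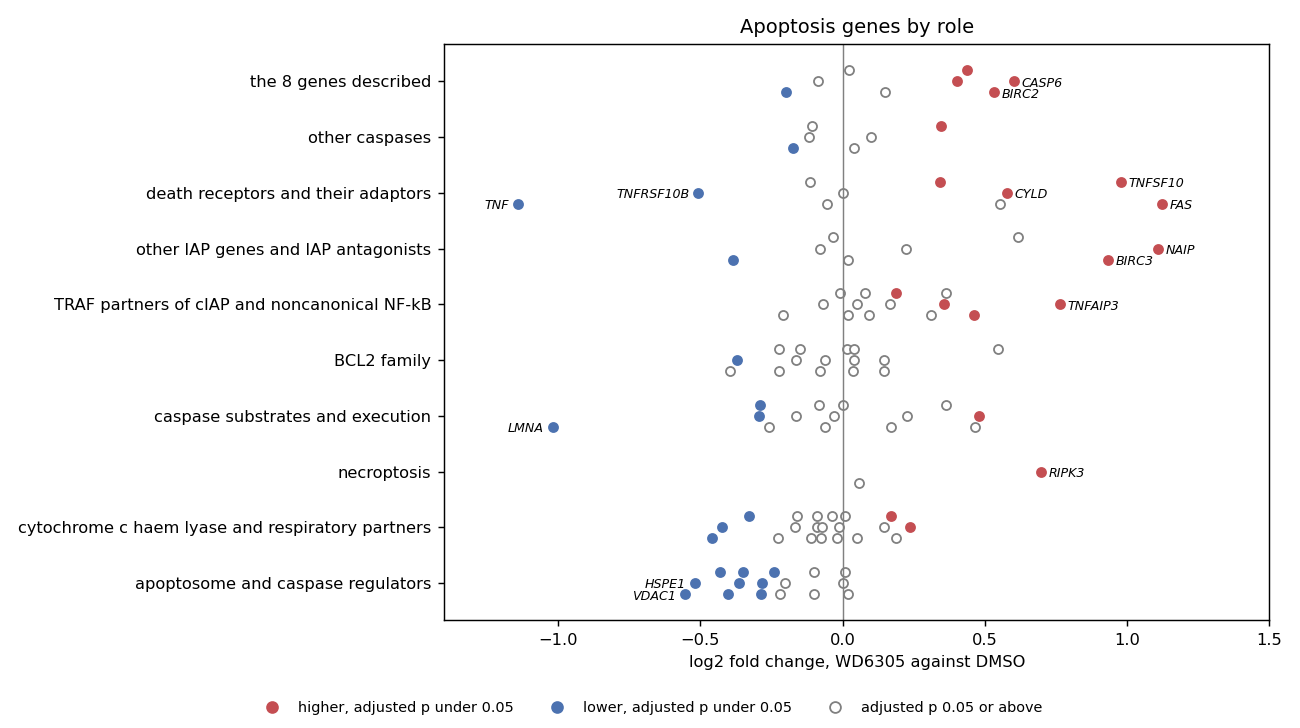
Log2 fold change (horizontal axis, WD6305 against DMSO) of the 8 genes and of each tested gene of 9 apoptosis lists, with filled points for an adjusted p under 0.05. Death receptor genes spread from -1.14 to 1.12, BCL2 family genes lie mostly near 0, and the 9 called genes of the bottom list are all lower.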

How the data were processed

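The authors deposited 1 table of 31853 Ensembl genes, which gives an estimated count and a second value in FPKM per library for 6 libraries. Tools named in the submitters' processing notes are fastp, HISAT2, StringTie and edgeR, with the GRCh38 build; no source used here gives their versions or settings. Estimated counts, as deposited, are whole numbers with an excess at multiples of 4 where counts are low (1071 to 1176 genes at 4, 553 to 636 at 3). Precision was therefore not judged by counting statistics alone, and the edgeR fit also takes in the spread between replicates. With counts divided by 4 the fit called 4597 genes, against 4249 with counts as deposited. FPKM values were scaled by the authors, per the file headers. The labels' protocols name dUTP, which marks strand; no source used here says whether counting used it. The table held 0 further sample columns.

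Counts were kept with filterByExpr (18138 genes), scaled with TMM factors (0.987 to 1.02) and tested with the edgeR 4.0.16 quasi-likelihood test (R 4.3.3) without a replicate block. P-values were adjusted by the Benjamini-Hochberg method over all tested genes at 0.05. Standard errors came from the F value. Alternatives used DESeq2 1.42.0, limma 3.58.1, other scalings and filters, and fewer libraries. Fits were tested on simulated data. Libraries within a group differed beyond counting noise (chi-square per degree of freedom 3.77 to 10.5, counts divided by 4). The 8 genes and the lists were chosen with earlier results of these data known. Named list genes were all those called when 5 or fewer, otherwise the 4 with the smallest adjusted p. Genes named beyond these were chosen after their values were seen.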

Additional observations from a re-analysis of the deposited data

How the results depend on the processing

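Over 17 alternative settings, the 4 rising members were called in each, and CYCS in 9, so the count of called members was 4 or 5. The sign of CASP8 turned without DMSO 3 (log2 fold change -0.019), without DMSO 3 and WD6305 1 (-0.035) and in limma on log2(FPKM + 1) (-0.00024) and log2(FPKM + 0.1) (-0.00034). That of XIAP turned without DMSO 3 (0.061) and without DMSO 3 and WD6305 1 (0.028), and neither gene was called in any setting. With 1 library left out, CASP8 ranged from -0.019 to 0.062 and XIAP from -0.20 to 0.061. The cause was not tested. The 35 called entries of the pathway lists became 28 to 41. Called genes over the whole table were 4249, between 2756 (without WD6305 3) and 4640 with 1 library left out, and at most 5003 (DESeq2). Over the settings run for the ratios, the log2 difference ranged from 0.36 to 0.56 for CFLAR to CASP8, 0.54 to 0.66 for APAF1 to CYCS, 0.50 to 0.74 for BIRC2 to XIAP and -0.31 to -0.11 for XIAP to CASP9. With the replicate number as a block, 3204 genes, 4 members and 29 list entries were called, CYCS not among them (adjusted p = 0.0800), and BAK1, BIRC3, CASP1, COX6A1, NFKB1 and UQCRFS1 lost their calls. Same-numbered libraries did not deviate together (correlations -0.18, 0.08 and -0.15), and DMSO 3 was most like WD6305 1 (0.26), so the numbers were not taken as pairs.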

Other observations

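The letters GGACT, a common form of the site that the METTL3 complex methylates, were counted on the sense strand of 1 principal transcript per gene in the GENCODE annotation. Over 13378 tested genes the median was 0.942 per kilobase. CASP9 and CASP8, which did not pass the test, held 2.97 and 2.46 per kilobase, at percentiles 98.4 and 95.9 of these genes. These densities rest on 6 and 4 matches in transcripts of 2019 and 1629 bases. BIRC2, CASP6 and APAF1 had 2, 1 and 4 matches in 4066, 1548 and 5444 bases. The rising genes BIRC2, CASP6 and APAF1 held 0.492, 0.646 and 0.735 per kilobase, below the median, and CFLAR was near it at 0.954, with 14 matches in a transcript of 14672 bases. CYCS held 1.71 and XIAP 0.698 per kilobase. Over all genes the medians were 0.916 for those called higher, 0.988 for those called lower and 0.939 for the rest. A match to these letters does not show methylation, which the data used here do not hold.

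For each member the tested genes with a mean of at least 5 FPKM were ranked by Pearson's r of log2(CPM + 0.1) with it over the 6 libraries, as a description in which the treatment is shared by all. CYCS was most like HNRNPA3 (r = 0.997) and HNRNPA2B1 (0.983). CFLAR was most like HNMT (0.997) and SPTLC2 (0.996), BIRC2 like IWS1 (0.995) and KDM1B (0.992), APAF1 like DCLRE1B (0.996) and CDK19 (0.995), and CASP6 like FAM136A (0.995) and C2orf68 (0.995). For the members that did not pass, the nearest were PLOD3 (0.986) and then COASY for CASP8, FLT3 and then SOD2 (0.971) for CASP9, and SLC39A6 (0.970) and COPS5 (0.964) for XIAP. Among the members themselves, CFLAR and APAF1 (0.949) and CFLAR and BIRC2 (0.938) had the highest r, and CASP6 and CYCS the lowest (-0.857).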
